A study of Mus musculus with 32 samples.

Results

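Protocadherins are single-pass membrane proteins of the cadherin superfamily that bind their own kind on neighbouring cells. Every gene of the deposited m6A table whose symbol starts with Pcdh was taken, which gave 70 genes of 27179. Of these, 58 belong to the clustered alpha, beta and gamma families and the other 12 are solitary genes. In the reference annotation (GRCm38.p6) the 58 clustered genes lie on chromosome 18, together with the solitary genes Pcdh1 and Pcdh12, which makes 60 members on that chromosome.

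The clustered genes were grouped into 12 alternate alpha genes (Pcdha1 to Pcdha12), 22 beta genes (Pcdhb1 to Pcdhb22), 12 gamma A genes, 7 gamma B genes and 5 C-type genes (Pcdhac1, Pcdhac2, Pcdhgc3, Pcdhgc4 and Pcdhgc5). The solitary genes were grouped into delta-1 (Pcdh1, Pcdh7, Pcdh9, Pcdh11x), delta-2 (Pcdh8, Pcdh10, Pcdh17, Pcdh18, Pcdh19) and others (Pcdh12, Pcdh15, Pcdh20). In neurons each alternate alpha, beta and gamma promoter is chosen by chance with the help of CTCF and cohesin, so that neighbouring cells carry different sets of isoforms and can tell their own branches from those of others. The C-type genes are switched on differently, in most neurons of a type. Alpha and gamma transcripts each join 1 variable exon to constant exons shared by the whole cluster, whereas a beta gene is a single exon.

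The study pulled down RNA carrying N6-methyladenosine (m6A), a methyl mark on adenosine, from FFPE tissue (fixed in 10% formalin and embedded in paraffin) and from flash-frozen tissue of mouse brain, heart, kidney and liver. The sources used here give no strain, age or sex for the mice. The labels list 32 samples, 16 with the m6A antibody and 16 inputs, in 16 groups of 2 runs, but the table holds 1 column for each of 8 combinations of organ and preservation. Each combination is therefore 1 library without a replicate, and the sources used here do not say whether 1 run or both went into it. Input was not analysed here, so a level tells how much of a transcript the antibody recovered, and abundance and methylation were not separated. In tissue pieces such as these, fewer cells of a type and less RNA per cell cannot be told apart.

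Total gene counts ran between 9603050 (FFPE brain) and 21523379 (frozen brain), and ribosomal transcripts took 50.4 to 79.7% of them. Levels are log2 CPM (counts divided by a library size that the authors scaled), with 0.5 added to each count, and 3 counts stood at log2 -3.29 in frozen brain and at log2 -0.86 in FFPE liver. Neuron markers followed the organ labels: the median of 10 was log2 6.01 in FFPE brain and log2 6.30 in frozen brain, and at most log2 1.76, in frozen heart, elsewhere. Medians of the cardiomyocyte, nephron and hepatocyte markers were highest in heart, kidney and liver. Single markers were also high elsewhere. Aldh1l1 of astrocytes had log2 8.66 in FFPE liver against 3.09 in FFPE brain. Ttr of hepatocytes had log2 8.50 in frozen brain but 4.31 in FFPE brain (12435 and 427 counts), so the 2 brain libraries differed in this gene. Ryr2 of cardiomyocytes had log2 7.59 in FFPE brain. The 2 heart libraries differed in the neuron markers, whose summed level was 18.7 CPM in FFPE heart against 45.6 CPM in frozen heart, with none of the 10 at 0 counts in either. Slc17a7 (142 counts in FFPE heart, 57 in frozen heart) and Stmn2 (17 and 12) went the other way, and without Slc17a7 the sums were 6.53 CPM in FFPE heart against 41.2 CPM in frozen heart. Astrocyte markers summed to 7.05 CPM in FFPE heart against 43.2 CPM in frozen heart, and oligodendrocyte markers to 10.7 CPM (1 of 5 at 0 counts) against 35.0 CPM. Most astrocyte counts in frozen heart were of Slc1a2 (35 in FFPE, 452 in frozen heart). Slc1a3 (10 and 50) and Gfap (3 and 15) went the same way, while Aldh1l1 (12 and 14) and Aqp4 (22 and 29) differed little. The reads carry no molecular identifiers and so are not independent molecules, and the intervals below cover counting error only.

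Promoter windows of 3 solitary members with contrasting patterns are shown, each 300 bases long (250 before and 50 after an annotated start), from RefSeq on GRCm38.p6, on the plus strand, with CpG dinucleotides in capitals. Pcdh10 lies at chr3:45378148-45378447 and was high in brain, Pcdh7 lies at chr5:57717831-57718130 and was high in heart and brain, and the window of Pcdh15, at chr10:73821617-73821916, belongs to a start inside the gene.
Pcdh10: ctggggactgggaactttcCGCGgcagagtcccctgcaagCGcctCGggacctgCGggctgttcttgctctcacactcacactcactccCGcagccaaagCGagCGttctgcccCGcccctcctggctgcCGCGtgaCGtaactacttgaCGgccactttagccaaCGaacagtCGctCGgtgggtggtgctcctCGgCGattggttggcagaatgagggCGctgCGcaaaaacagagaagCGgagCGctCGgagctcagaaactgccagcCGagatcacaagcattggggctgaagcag
Pcdh7: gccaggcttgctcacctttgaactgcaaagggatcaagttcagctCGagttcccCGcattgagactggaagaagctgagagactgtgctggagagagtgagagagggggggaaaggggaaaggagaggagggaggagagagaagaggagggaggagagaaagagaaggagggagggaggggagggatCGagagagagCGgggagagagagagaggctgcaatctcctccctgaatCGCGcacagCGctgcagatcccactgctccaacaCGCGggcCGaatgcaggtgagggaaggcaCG
Pcdh15: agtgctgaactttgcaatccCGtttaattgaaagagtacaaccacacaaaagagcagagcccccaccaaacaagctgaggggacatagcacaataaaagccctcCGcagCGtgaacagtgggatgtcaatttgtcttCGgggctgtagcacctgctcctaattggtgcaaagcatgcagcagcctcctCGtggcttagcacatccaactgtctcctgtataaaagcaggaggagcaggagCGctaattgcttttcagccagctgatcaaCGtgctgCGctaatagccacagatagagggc
The Pcdh10 window holds 24 CpG, that of Pcdh7 11 and that of Pcdh15 8, against a median of 7 in all 32851 windows of the table. Windows were used for 9 of the 12 solitary members (10 windows in all, since Pcdh9 has 2), with a median of 18 CpG and 62.3% G and C, against 52.7% in all windows. The letters CGCT, the core of the conserved element of clustered protocadherin promoters, occurred on either strand in 10 of the 10 windows and in 61.8% of all windows. TATAAA occurred in 2 member windows (Pcdh8 and Pcdh15) and in 13.6% of all windows, and CACGTG in 0 member windows and in 7.15% of all windows. Each motif was searched by itself, whether or not it overlapped another, and a match is a description of the letters only.

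The pulled-down protocadherin RNA was brain-rich, with a gamma cluster that was also well covered in heart. All 70 members had at least 1 count in both brain libraries. Of all 27179 genes, 9537 had none in FFPE brain and 5821 none in frozen brain. Outside brain, members at 0 counts numbered 20 (FFPE heart), 4 (frozen heart), 17 (FFPE kidney), 3 (frozen kidney), 33 (FFPE liver) and 11 (frozen liver). Those libraries, in that order, had 11456, 4952, 9219, 4471, 12801 and 6611 of the 27179 genes at 0 counts. Zeros outside brain were therefore not more common among members than among all genes, with FFPE liver about equal. The heatmap of all members shows the same blocks in both preservations: alpha and most beta genes were dark outside brain, gamma A and gamma B were bright in brain and heart, and Pcdh12 was dark in brain alone.

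**Figure D1:**
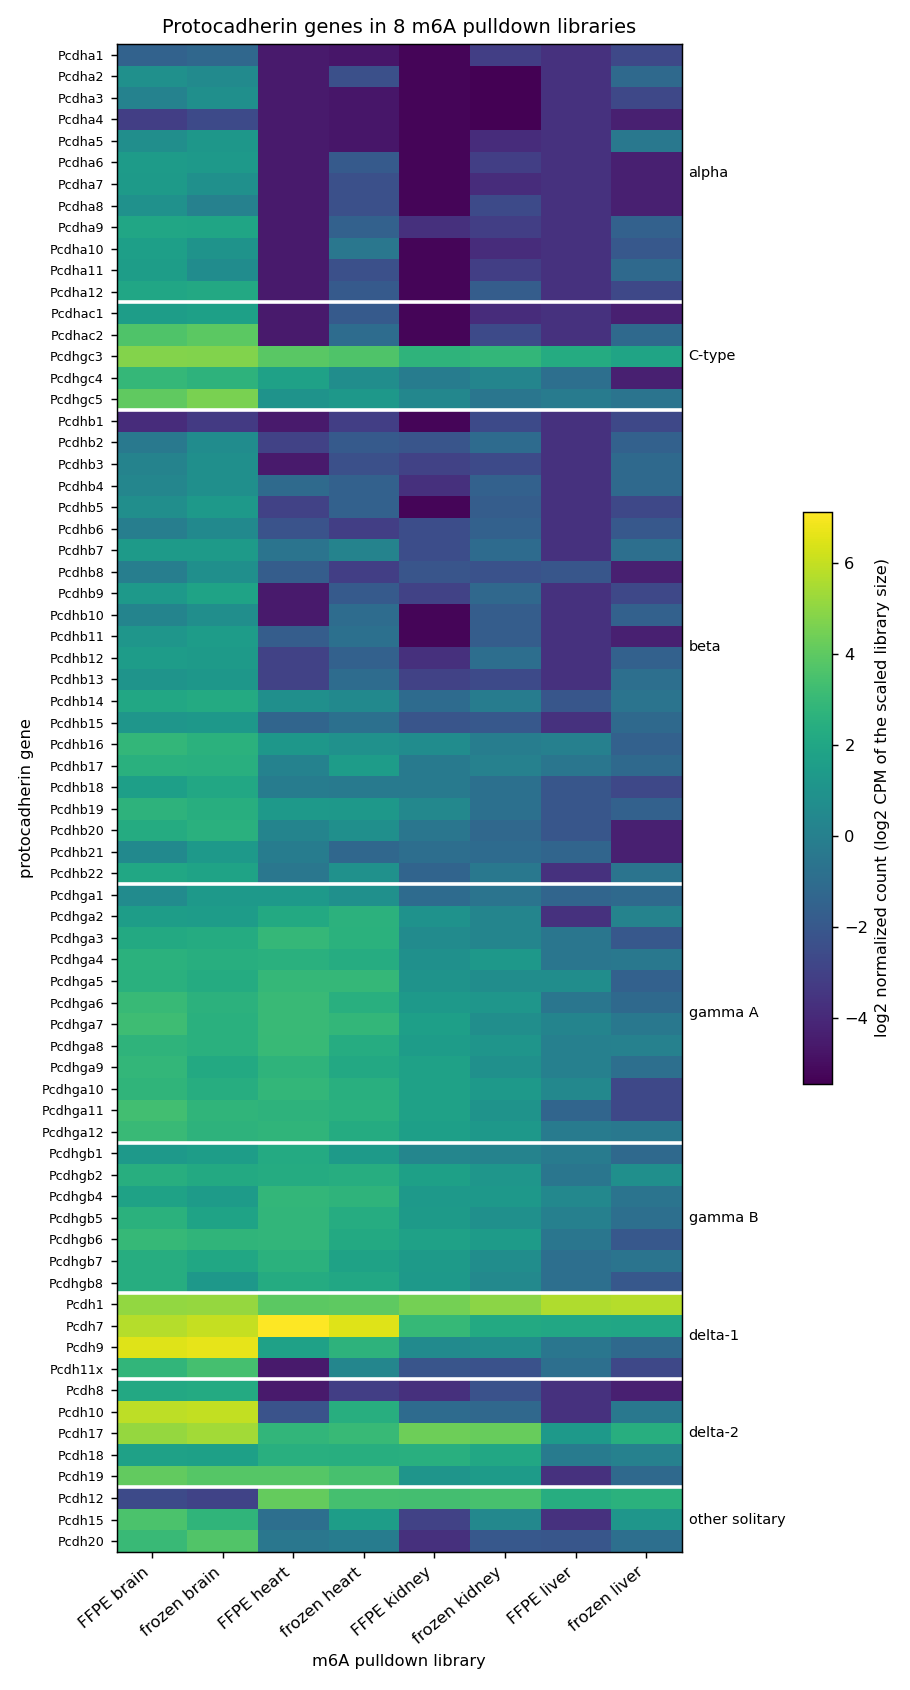
Level of each of the 70 protocadherin genes (rows, in 8 groups divided by white lines) in the 8 m6A libraries (columns), as log2 normalized count on a colour scale. The alpha block is near or at 0 counts in FFPE heart, FFPE kidney and FFPE liver, and Pcdh7 in FFPE heart is the highest cell at log2 7.13.

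Of the 3 clusters, alpha had the fewest counts outside brain. Its 14 genes (12 alternate and 2 C-type) together had 893 counts in FFPE brain and 1437 in frozen brain, which is 41.6 CPM (95% exact Poisson interval 38.9 to 44.4) and 42.0 CPM (39.8 to 44.2). Outside brain they had 0 counts in FFPE heart, 36 in frozen heart, 1 in FFPE kidney, 24 in frozen kidney, 0 in FFPE liver and 27 in frozen liver. Both brain libraries stood above all 6 others for the sum, and the counts outside brain were almost all in frozen tissue. Among all genes of the table, too, more were at 0 counts in FFPE than in frozen tissue of each organ, as given above.

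Between organs of the same preservation, with 3 counts per library in place of a sum at 0, FFPE brain was at least 161-fold above FFPE heart and at least 87.8-fold above FFPE liver. Frozen brain was 15.1-fold above frozen heart, 38.3-fold above frozen kidney and 15.6-fold above frozen liver. The summed alpha level in frozen heart was 2.78 CPM (1.94 to 3.84). The summed neuron and glia markers given above were also higher in frozen than in FFPE heart, with Slc17a7 and Stmn2 as exceptions, and their part in this result was not tested. In liver, where alpha counts were likewise found in frozen tissue only, the summed neuron markers were 4.58 CPM in FFPE liver and 5.18 CPM in frozen liver, and 0.474 CPM against 3.09 CPM without Syt1, which alone had 26 and 21 counts. Of the 10 neuron markers, 7 were at 0 counts in FFPE liver and 1 in frozen liver. In kidney, where alpha had 1 count in FFPE and 24 in frozen tissue, the summed neuron markers were 5.23 CPM and 7.58 CPM. The part of the neuron markers in the alpha counts of kidney and liver was not tested.

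Single alpha genes were low even in brain. Pcdha12 had log2 1.98 in FFPE brain and 2.16 in frozen brain (84 and 152 counts), against 0, 3, 0, 6, 0 and 1 counts in FFPE heart, frozen heart, FFPE kidney, frozen kidney, FFPE liver and frozen liver. Pcdha9 had log2 1.98 and 1.94 in FFPE and frozen brain (84 and 131 counts), against 0, 4, 1, 2, 0 and 3 counts in the other libraries in that order. Both brain libraries stood above the other 6 for both genes and for the other 10 alternate alpha genes. The same held for 26.6% of the genes tested and 16.4% of all genes in the table. For Pcdha4, at log2 -3.10 in FFPE brain, the order says little, because 3 counts in FFPE liver stand at log2 -0.86.

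Pcdha6 (58 and 87 counts), Pcdha10 (66 and 69) and Pcdha7 (56 and 62) followed in brain, with 0 to 9 counts in any other library. Pcdha4 was at 2 and 5 counts in FFPE and frozen brain. The constant exons are shared, and the sources used here do not say how shared reads were counted. These low counts bound the number of constant-exon reads that could have been counted for every alpha gene at once. In gamma that bound, the lowest member of the cluster, was 32 counts (Pcdhga1) in FFPE brain and 80 counts (Pcdhgb8) in frozen brain. In heart it was 23 counts (Pcdhgc5) in FFPE and 21 counts (Pcdhgc4) in frozen tissue, where gamma A genes had 23 to 99 counts. Up to that number of reads in each gamma gene could be shared ones, which limits the heart levels and folds of gamma genes below.

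The 2 alpha C-type genes lie at the end of the cluster next to the constant exons. Pcdhac2 had log2 3.68 in FFPE brain and 3.95 in frozen brain (274 and 528 counts), against 0, 6, 0, 3, 0 and 4 counts in FFPE heart, frozen heart, FFPE kidney, frozen kidney, FFPE liver and frozen liver. Of all alpha counts, not corrected for length, it held 30.7% (27.7 to 33.8%, 95% Wilson interval) in FFPE brain and 36.7% (34.3 to 39.3%) in frozen brain. Pcdhac1 had 63 and 112 counts in FFPE and frozen brain and at most 3 counts elsewhere.

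**Figure D2:**
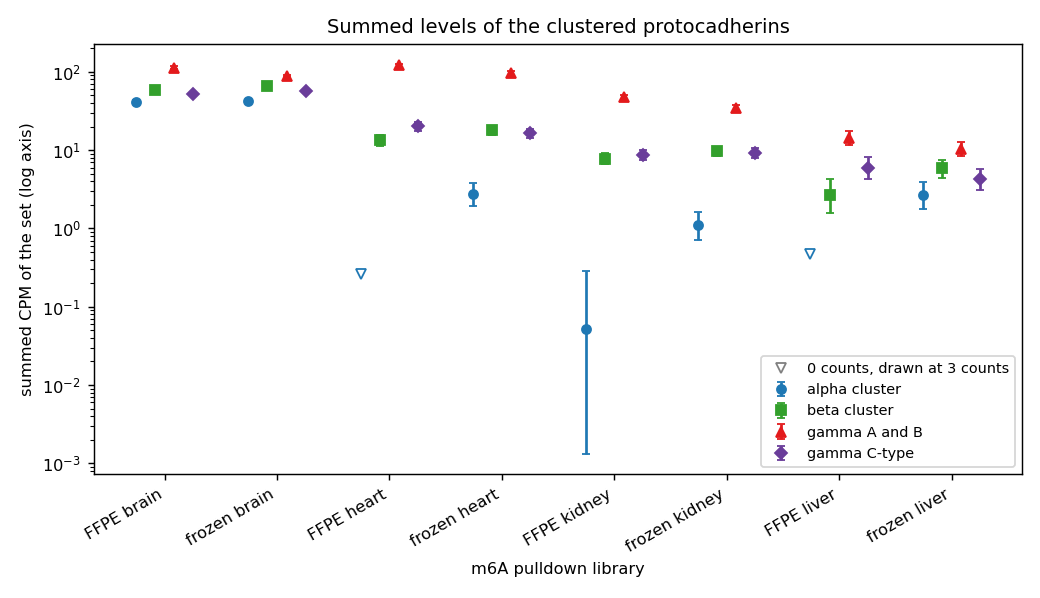
Summed level of the alpha cluster, the beta cluster, gamma A with gamma B, and the gamma C-type genes in each library, as CPM on a log axis, with 95% exact Poisson intervals and open triangles for sums at 0 counts drawn at 3 counts. Gamma A with gamma B is at 113 CPM in FFPE brain and 121 CPM in FFPE heart, whereas the alpha cluster is at 41.6 CPM in FFPE brain and at 0 counts in FFPE heart.

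The beta cluster was brain-rich but not brain-restricted. Its 22 genes summed to 59.5 CPM in FFPE brain (56.3 to 62.9, 1279 counts) and 66.8 CPM in frozen brain (64.0 to 69.5, 2285 counts). The other sums were 13.3 CPM in FFPE heart, 17.96 CPM in frozen heart, 7.79 CPM in FFPE kidney, 9.63 CPM in frozen kidney, 2.68 CPM in FFPE liver and 5.88 CPM in frozen liver. Brain therefore stood 3.72 to 4.47 times above heart, 6.93 to 7.64 times above kidney and 11.4 to 22.2 times above liver of the same preservation.

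Among single beta genes, Pcdhb16 had log2 2.90 in FFPE brain and 2.61 in frozen brain, against 1.19 in FFPE heart, 0.92 in frozen heart, 0.69 in FFPE kidney, -0.10 in frozen kidney, 0.04 in FFPE liver and -1.52 in frozen liver. Pcdhb19 had log2 2.69 in FFPE brain and 2.45 in frozen brain, against 1.29, 1.28, 0.44, -0.81, -2.08 and -1.52 in the other libraries in that order. Both genes ran brain, heart, kidney, liver, high to low, in FFPE tissue, and both brain libraries lay above the rest.

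Pcdhb17 (126 and 194 counts in FFPE and frozen brain) had 12 counts in FFPE heart and 36 in frozen heart. Pcdhb20 had 103 and 197 counts in FFPE and frozen brain, and 13 and 22 in FFPE and frozen heart. Pcdhb14 had 90 and 164 counts in brain, and 20 and 18 in heart, in the same order. Pcdhb1, at the other end of the cluster, had 1 and 3 counts in FFPE and frozen brain and was the only beta gene whose brain libraries did not both stand above the other 6.

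A beta gene is 1 exon, so its level can be set against its length, here the span of the RefSeq gene. Per kilobase, Pcdhb17 was highest in brain, at 1.79 CPM in FFPE brain and 1.73 CPM in frozen brain, and Pcdhb1 lowest, at 0.0189 CPM and 0.0357 CPM. Across the 22 genes, CPM per kilobase went with position in the cluster, with a Spearman correlation of 0.77 in FFPE brain, 0.82 in frozen brain, 0.71 in FFPE heart and 0.78 in frozen heart. These correlations are across genes that share their libraries and close sequence similarity, and the sources used here do not say how reads shared by similar beta genes were counted.

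**Figure D3:**
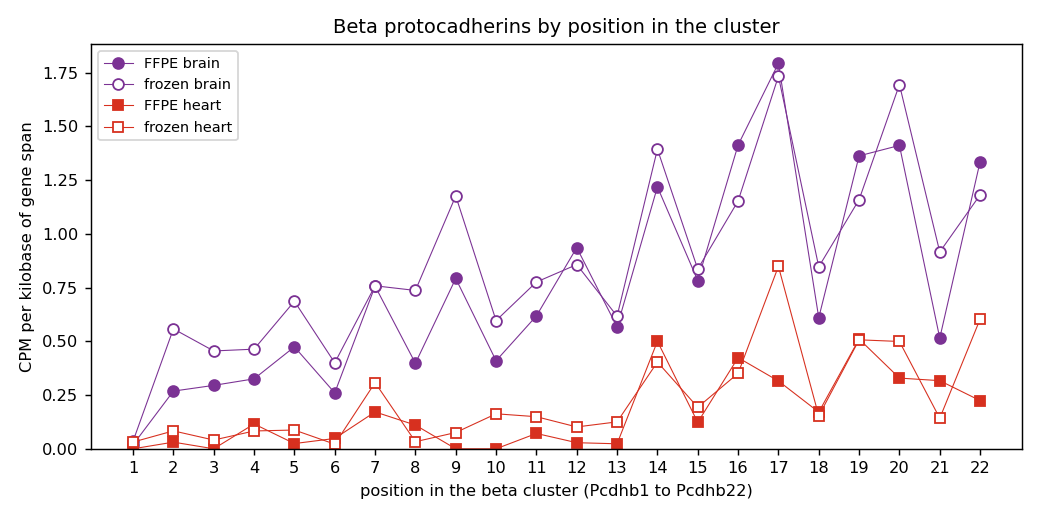
CPM per kilobase of gene span for the 22 beta genes in their order along the cluster (1 to 22) in FFPE brain, frozen brain, FFPE heart and frozen heart. Position 1 (Pcdhb1) is lowest in both brain libraries at 0.0189 and 0.0357 CPM per kilobase, and position 17 (Pcdhb17) highest at 1.79 and 1.73.

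Gamma A and gamma B, the alternate isoforms of the gamma cluster, had similar levels in brain and heart on the authors' scale. Their 19 genes summed to 113 CPM in FFPE brain (108 to 118) and 88.2 CPM in frozen brain (85.0 to 91.4), against 121 CPM in FFPE heart (115 to 128) and 96.6 CPM in frozen heart (91.3 to 102). Kidney had 47.3 CPM (FFPE) and 34.8 CPM (frozen), and liver 14.4 CPM (FFPE) and 10.4 CPM (frozen). The order brain with heart, then kidney, then liver held in both preservations.

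How brain compares with heart here rests on the scaling. Brain was 0.930 times heart in FFPE tissue and 0.913 times heart in frozen tissue on the authors' scale, 2.44 and 2.17 times heart when counts were divided by total gene counts, and 1.38 and 1.19 times heart when divided by counts outside the ribosomal genes. The difference between clusters does not depend on it: in the same libraries the beta cluster was 4.47 and 3.72 times heart and the alpha cluster at least 161 and 15.1 times heart.

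Pcdhga11, the gamma A gene with the highest mean log2 level in brain, had log2 3.33 in FFPE brain and 2.79 in frozen brain, against 2.68 in FFPE heart, 2.56 in frozen heart, 1.73 in FFPE kidney, 0.99 in frozen kidney, -1.34 in FFPE liver and -2.74 in frozen liver. It was the only gamma A or gamma B gene with both brain libraries above the other 6. Pcdhga7 had log2 3.22 and 2.51 in FFPE and frozen brain, against 3.05 and 2.90 in FFPE and frozen heart, 1.66 and 0.78 in kidney, with 0.24 and -0.42 in liver. Its brain and heart values overlapped.

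Pcdhga12 had log2 3.08 and 2.69 in FFPE and frozen brain and 2.79 and 2.29 in FFPE and frozen heart. Pcdhga6 had 3.01 and 2.61 in brain and 3.10 and 2.46 in heart, and Pcdhga8 had 2.72 and 2.51 in brain and 3.04 and 2.36 in heart, in the same order. Brain and heart ranges overlapped for 8 of the 12 gamma A genes and for 6 of the 7 gamma B genes, beside 28.5% of all genes tested. Both heart libraries lay above both brain libraries for 3 gamma A genes and 1 gamma B gene, beside 29.9% of all genes tested.

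In gamma B, Pcdhgb6 had log2 2.96 in FFPE brain and 2.80 in frozen brain, against 2.84 in FFPE heart, 2.20 in frozen heart, 1.77 in FFPE kidney, 1.47 in frozen kidney, -0.49 in FFPE liver and -2.01 in frozen liver. Pcdhgb2, Pcdhgb5, Pcdhgb7 and Pcdhgb8 lay between log2 1.23 and 2.60 in brain and between log2 1.78 and 2.81 in heart. The 7 genes together were at 35.6 CPM in FFPE brain and 27.2 CPM in frozen brain, against 41.8 CPM in FFPE heart and 31.5 CPM in frozen heart.

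The gamma C-type genes behaved differently from their alternate neighbours, and from each other. Pcdhgc3 had log2 4.79 in FFPE brain and 4.73 in frozen brain, against 3.91 in FFPE heart, 3.65 in frozen heart, 2.73 in FFPE kidney, 2.89 in frozen kidney, 2.27 in FFPE liver and 1.90 in frozen liver. It had the most counts of any gamma gene in all 8 libraries, not corrected for length. Pcdhgc5 had log2 4.06 and 4.58 in FFPE and frozen brain, against 1.01 and 1.23 in heart, 0.39 and -0.50 in kidney, with -0.20 and -0.63 in liver, again FFPE then frozen. Pcdhgc5 thus stood 8.41 and 10.3 times above heart in FFPE and frozen tissue, while Pcdhgc3 stood 1.85 and 2.13 times above it.

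Pcdhgc4, which in mice is needed for the survival of interneurons, had 161 and 222 counts in FFPE and frozen brain, 38 and 21 in heart, 17 and 26 in kidney, with 3 and 0 in liver. Shares of the gamma counts do not depend on how libraries were scaled. C-type genes made up 31.4% of gamma counts in FFPE brain (29.9 to 32.96%) and 39.2% in frozen brain (37.9 to 40.6%), against 14.3% (12.7 to 16.0%) in FFPE heart and 14.5% (12.8 to 16.4%) in frozen heart. In kidney they made up 15.6% (FFPE) and 21.0% (frozen), and in liver 29.5% (FFPE, 22.3 to 37.8%) and 29.3% (frozen, 22.5 to 37.1%).

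Pcdhgc5 took 10.1% of gamma counts in FFPE brain (9.14 to 11.1%) and 16.4% in frozen brain (15.4 to 17.5%), against 1.40 to 4.08% in the other 6 libraries. Pcdhgc3 took 16.8% in FFPE brain and 18.3% in frozen brain, 10.6 to 16.8% in heart and kidney, and 23.3% (FFPE, 16.8 to 31.3%) and 25.2% (frozen, 18.8 to 32.8%) in liver, where the intervals are wide because the whole cluster had 129 and 147 counts. Pcdhgc4 was at 0 of 147 counts in frozen liver, and a count of 0 allows up to 3 counts there.

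**Figure D4:**
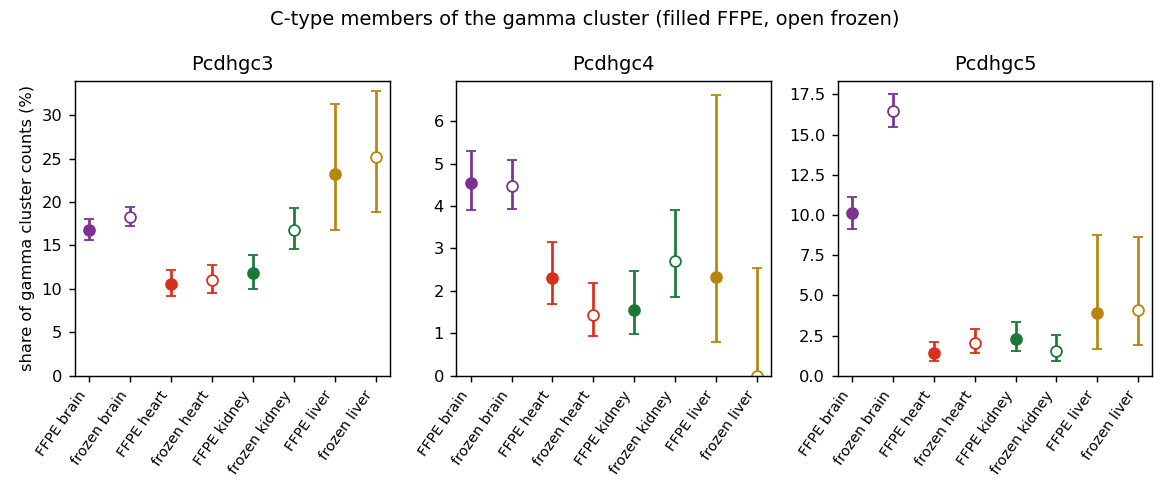
Share of all gamma cluster counts taken by Pcdhgc3, Pcdhgc4 and Pcdhgc5 in each library, in percent with 95% Wilson intervals, FFPE filled and frozen open. Pcdhgc5 is at 10.1 and 16.4% in FFPE and frozen brain and at no more than 4.08% elsewhere, whereas Pcdhgc3 has its highest shares in liver at 23.3 and 25.2%.

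Among the delta-1 genes, Pcdh7, an adhesion protein that also acts in signalling, was the member with the highest level in heart. It had log2 5.74 in FFPE brain and 6.04 in frozen brain (1148 and 2248 counts), 7.13 in FFPE heart and 6.54 in frozen heart (1632 and 1205), 2.97 and 2.20 in FFPE and frozen kidney (152 and 100), and 2.12 and 1.98 in FFPE and frozen liver (27 and 39). Both heart libraries lay above both brain libraries on the authors' scale, and kidney and liver far below.

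Pcdh9, known from neuronal connections, had log2 6.54 in FFPE brain and 6.66 in frozen brain, against 1.76, 2.67, 0.55, 0.74, -0.49 and -1.16 in FFPE heart, frozen heart, FFPE kidney, frozen kidney, FFPE liver and frozen liver. Pcdh1, which also serves in epithelia, had log2 5.11 and 5.13 in FFPE and frozen brain, 3.97 and 4.01 in heart, 4.49 and 4.94 in kidney, with 5.62 and 5.73 in liver. It was the only member with both liver libraries above the other 6. Pcdh11x, an X-linked gene, had 154 and 364 counts in FFPE and frozen brain, 0 and 16 in heart, 4 and 4 in kidney, with 3 and 1 in liver.

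Among the delta-2 genes, Pcdh10, which takes part in axon growth and synapse loss, had log2 5.87 in FFPE brain and 5.98 in frozen brain (1254 and 2156 counts). Outside brain it had 2 counts in FFPE heart, 69 in frozen heart, 9 in FFPE kidney, 9 in frozen kidney, 0 in FFPE liver and 7 in frozen liver. Frozen heart, with log2 2.42, was the highest library outside brain, and it is also the library outside brain with the highest neuron markers, whose part in this value was not tested.

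Pcdh17, found at synapses of the basal ganglia, had log2 5.16 and 5.40 in FFPE and frozen brain, 2.84 and 3.01 in heart, 4.33 and 4.19 in kidney, with 1.29 and 2.41 in liver. Pcdh19, an X-linked gene whose loss in part of the neurons causes epilepsy in humans, had 369 and 473 counts in FFPE and frozen brain, 162 and 144 in heart, 42 and 60 in kidney, with 0 and 4 in liver. For Pcdh18, FFPE and frozen brain were at log2 1.75 and 1.70, both heart libraries at 2.49 and 2.44, both kidney libraries at 2.49 and 2.08, and both liver libraries at -0.20 and 0.06, FFPE before frozen. Pcdh8, an activity-regulated synaptic gene also called arcadlin, had 93 and 162 counts in FFPE and frozen brain and at most 4 counts elsewhere.

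Pcdh12, a protocadherin of endothelial cells, ran the other way. It had 3 counts in FFPE brain and 4 in frozen brain, against log2 4.14 and 3.42 in FFPE and frozen heart, 3.35 and 3.48 in kidney, with 2.40 and 2.59 in liver. The median of 7 endothelial markers was log2 1.65 in FFPE brain and 1.23 in frozen brain, against 5.17 and 4.68 in heart, 3.51 and 4.05 in kidney, with 2.81 and 3.07 in liver, and their part in the level of Pcdh12 was not tested.

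Pcdh15, a component of the tip links of hair cells in the inner ear, had 251 counts in FFPE brain and 234 in frozen brain, 6 and 37 in heart, 2 and 29 in kidney, with 0 and 22 in liver. Outside brain it was low in all 3 FFPE libraries and higher in the frozen ones. Pcdh20 had 182 and 447 counts in FFPE and frozen brain, 8 and 11 in heart, 1 and 5 in kidney, with 1 and 5 in liver.

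**Figure D5:**
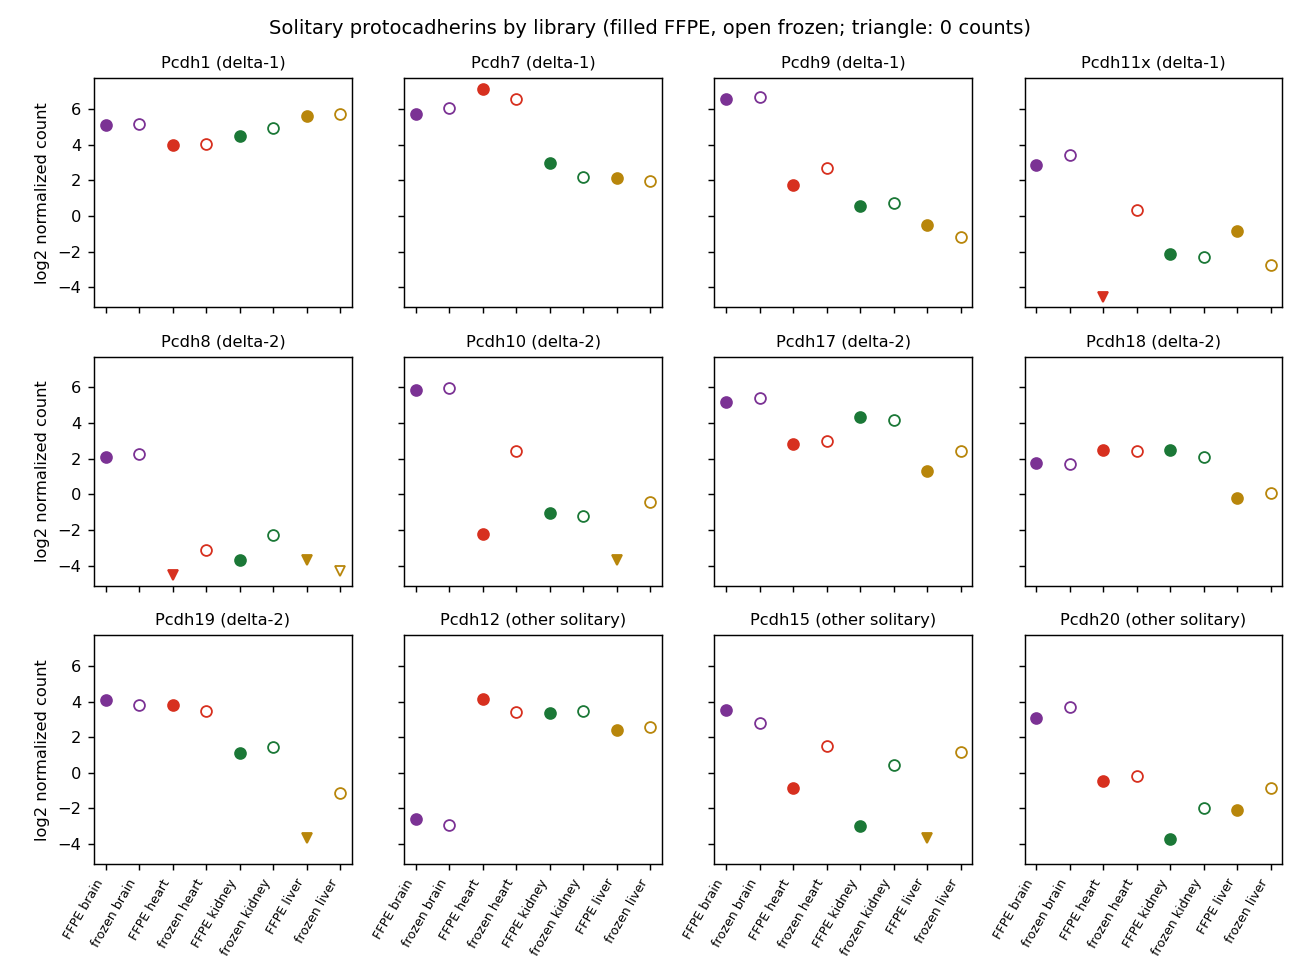
Log2 normalized count of the 12 solitary protocadherins in the 8 libraries, 1 panel per gene, FFPE filled, frozen open, downward triangles for 0 counts. Pcdh12 is low only in brain (3 and 4 counts), Pcdh7 is highest in heart (log2 7.13 and 6.54), and Pcdh15 in heart has 6 counts in FFPE and 37 in frozen tissue.

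Organs were compared with limma in an additive model (a term per organ and 1 for preservation, 3 residual degrees of freedom), on the 14864 genes with a log2 level above 0 in at least 2 libraries, and genes were called at a Benjamini-Hochberg adjusted p under 0.05. These p-values measure how alike the 2 preservations behaved, not the spread between animals. Of the 70 members, 64 were tested (52 clustered and 12 solitary), and only 35 would have been without the brain libraries. The other members tested had to be high in brain to enter, so their counts are a description and no support.

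Against the mean of the other 3 organs, 56 of the 64 members tested were higher in brain and 1 was lower, beside 30.2% of all genes tested that were higher and 26.4% that were lower. The higher ones were all 10 alternate alpha genes tested, all 18 beta genes tested, all 5 C-type genes, 10 of 12 gamma A, 4 of 7 gamma B and 9 of 12 solitary genes. The median difference was log2 4.80 for alpha, 4.10 for C-type, 2.99 for beta, 1.501 for gamma A and 1.13 for gamma B, and 0.07 over all genes tested. With no filter, 62 of 70 members were higher, beside 17.7% of all 27179 genes.

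Among named members, Pcdh10 was higher in brain by log2 6.94 ± 0.90 (SE, adjusted p = 0.000249 by limma), Pcdhac2 by 6.86 ± 0.81, Pcdh9 by 5.92 ± 0.32 and Pcdha12 by 5.38 ± 0.92. Pcdhac2 and Pcdha12 were at 0 counts in every FFPE library outside brain, and Pcdh10 in FFPE liver. The sizes for Pcdhac2, Pcdha12 and Pcdh10 therefore rest in part on the 0.5 added to each count. The single lower member was Pcdh12, at log2 -6.00 ± 0.31 (adjusted p = 3.08e-06). The 7 members not called were Pcdh1, Pcdh18, Pcdhga1, Pcdhga2, Pcdhgb1, Pcdhgb2 and Pcdhgb4, with differences between log2 0.17 and 1.26. Without the FFPE brain library 26 members were called higher, beside 20.0% of all genes tested. When both brain libraries were left out of the filter, 27 of 35 were, beside 24.1%, with all of these among the 56.

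Both brain libraries stood above all 6 others for 46 of the 70 members, beside 26.6% of the genes tested and 16.4% of all genes in the table. That held for 12 of 12 alternate alpha genes, 5 of 5 C-type genes, 21 of 22 beta genes, 7 of 12 solitary genes, 1 of 12 gamma A genes and 0 of 7 gamma B genes.

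Brain minus heart alone was added after the similar gamma levels had been seen. In that contrast 30 members were higher in brain, beside 26.3% of all genes tested, and 3 were lower, beside 19.1%. The higher ones took in all 10 alternate alpha genes tested, 9 of 18 beta genes, 4 of 5 C-type genes, and none of the 12 gamma A and 7 gamma B genes. By the size of the difference, the gamma A genes had a median of log2 -0.08 and the gamma B genes of log2 -0.35, and these medians became 1.24 and 0.98 when libraries were scaled by total gene counts, which adds log2 1.32 to every gene, with 2 gamma A genes and 1 gamma B gene then higher in brain, beside 52.7% of all genes tested.

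The 3 lower members were Pcdh12 (log2 -6.55 ± 0.38), Pcdhgb4 (log2 -1.18 ± 0.42, adjusted p = 0.0484 by limma) and Pcdh7 (log2 -0.95 ± 0.26, adjusted p = 0.0179). With scaling by total gene counts Pcdh7 was at log2 0.37 and Pcdhgb4 at log2 0.14, neither of them called. Pcdhgb4 itself had log2 levels of 1.62 in brain and 2.81 in heart as means of the 2 preservations. Without FFPE brain 8 members were higher in brain than in heart, beside 14.7% of all genes tested, and without FFPE heart 14 were, beside 19.0%. With brain left out of the filter 7 of 35 were, beside 20.9%.

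Heart was then compared with the mean of kidney and liver, a contrast free of brain. Here 30 members were higher, beside 19.0% of all genes tested, and 1 was lower, beside 20.1%. All 12 gamma A genes and all 7 gamma B genes were higher in heart, as were Pcdhgc3, Pcdhgc4 and Pcdhgc5, and these 22 genes would have entered the test without brain, as would 5 of the 18 beta genes tested. The gamma A median was log2 2.44 and the gamma B median log2 2.21, against log2 0.00 over all genes tested.

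Pcdhga3 was higher in heart by log2 3.16 ± 0.45 (adjusted p = 0.00071 by limma), Pcdhga11 by 2.96 ± 0.40 and Pcdhgb8 by 2.43 ± 0.42. Only 3 of 18 beta genes were called higher (Pcdhb14, Pcdhb19 and Pcdhb20), and none of the 10 alpha genes tested by limma, with 0 at an unadjusted p under 0.05. Of the alternate alpha genes 0 would have entered the test without brain. With 0 to 9 counts in each library outside brain, this contrast cannot decide for them. Of the solitary genes, Pcdh7 was higher in heart by log2 4.52 ± 0.23 (adjusted p = 2.85e-06), Pcdh19 by 4.20 ± 0.57, Pcdh9 by 2.31 ± 0.34, Pcdh20 by 1.85 ± 0.59 and Pcdh18 by 1.36 ± 0.32. Pcdh1 was lower in heart, at log2 -1.20 ± 0.16. Without the FFPE heart library, and likewise without the frozen one, 20 members were higher, beside 11.2% and 13.3% of all genes tested.

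In kidney against the mean of heart and liver, 2 members were higher, beside 14.9% of all genes tested, and 2 were lower, beside 10.3%. Pcdh17 was higher by log2 1.87 ± 0.26 (adjusted p = 0.00119 by limma) and Pcdh18 by 1.08 ± 0.32, while Pcdh7 was lower at log2 -1.86 ± 0.23 and Pcdh20 at log2 -1.95 ± 0.59. Scaling by total gene counts, which adds log2 1.05 to every gene here, gave 9 higher and 0 lower, beside 39.96% and 3.57% of all genes tested. Scaling by counts outside the ribosomal genes gave 9 higher and 1 lower, beside 41.2% and 5.38%. Without both heart libraries, which leaves kidney against liver, 15 were higher and 1 was lower, beside 16.95% and 11.8%, and Pcdh7 stood at log2 0.54.

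In liver against the mean of heart and kidney, 1 member was higher, beside 17.1% of all genes tested, and 30 were lower, beside 21.7%. Pcdh1 was the higher one, by log2 1.32 ± 0.16 (adjusted p = 0.000246 by limma), and stood at log2 0.43 and was not called when scaled by total gene counts. The lower ones were 11 of 12 gamma A genes, 7 of 7 gamma B genes, Pcdhgc3, Pcdhgc4, 4 of 18 beta genes and 6 solitary genes. Pcdh19 was lower by the widest margin among them, at log2 -4.88 ± 0.57, followed by Pcdhga11 at log2 -4.03 ± 0.40. Without both heart libraries 15 were lower, beside 16.95% of all genes tested.

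Preservation was compared across the 4 organs as blocks. Xist, the RNA that silences an X chromosome in females, had 4050 counts in FFPE brain against 5 in frozen brain, 2693 against 12 in heart, 6685 against 26 in kidney and 4477 against 5 in liver. Preservation thus coincided with this difference in all 4 organs, and preservation and a difference between source animals cannot be told apart for any FFPE minus frozen value of a member. No protocadherin was called by limma, beside 0.00673% of all genes tested, which is 1 gene, and the smallest adjusted p of a member was 0.175. At an unadjusted p under 0.05 stood 9 of the 64, beside 18.6% of all genes tested. Limma with voom precision weights also called 0 members, beside 1.79% of all genes tested that were higher and 1.02% that were lower. On simulated data of the same size this fit recovered 75% of 100 genes changed by log2 1. That share does not carry over to these data, where Dnmt3a, at log2 0.84 ± 0.13, was not called (adjusted p = 0.0572 by limma). Members had a wider SE still, such as Pcdha8 (SE 0.93) and Pcdhb10 (SE 0.79). Pcdh15, at log2 -2.45 ± 0.80, was not called either, and the absence of calls cannot exclude a change in any member. When libraries were scaled by total gene counts, Pcdh15 (log2 -2.57 ± 0.61, adjusted p = 0.00535 by limma) and Pcdh10 (log2 -2.07 ± 0.57) were lower in FFPE tissue, beside 1.20% of all genes tested.

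Within an organ each preservation is 1 library, so FFPE minus frozen is a value with an exact counting interval and no test. In brain the interval lay above 0 for 13 members, below 0 for 14 and spanned 0 for 43. For heart the interval lay above 0 for 10, below for 9 and across 0 for 51, for kidney 7, 7 and 56, and for liver 2, 3 and 65. Over all 27179 genes of the table the brain interval lay above 0 for 11.7% and below for 15.8%, the heart interval for 12.1% and 13.04%, the kidney interval for 12.4% and 11.9%, with 10.7% and 8.66% in liver. Member levels of the 2 preservations went together across the 70 genes with a Pearson correlation of 0.97 for brain, 0.90 for heart, 0.91 for kidney, and 0.59 for liver, where counts were lowest.

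The clusters did not move alike. On the authors' scale the gamma cluster was higher in FFPE than in frozen tissue by log2 0.18 in brain (0.12 to 0.24), 0.33 in heart (0.22 to 0.43), 0.35 in kidney (0.22 to 0.47) and 0.48 in liver (0.12 to 0.83). The beta cluster was at log2 -0.17 in brain (-0.27 to -0.07), -0.43 in heart (-0.73 to -0.13), -0.31 in kidney (with an interval spanning 0) and -1.13 in liver (-2.003 to -0.33). Scaling by total gene counts turned the sign for gamma in kidney (log2 -0.28) and liver (log2 -0.18) and for beta in brain (log2 0.33).

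As a share of all clustered counts, which no scaling changes, gamma was larger in FFPE tissue in each organ. It was 62.0% in FFPE brain against 57.2% in frozen brain, 91.4% against 84.5% in heart, 87.7% against 80.4% in kidney, and 88.4% against 63.1% in liver. The 95% Wilson intervals of the 2 preservations did not overlap in any of the 4 organs.

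In brain, the best covered organ, 8 of 19 gamma A and gamma B genes had an FFPE minus frozen interval above 0, among them Pcdhgb8 at log2 1.17 (0.74 to 1.60) and Pcdhgb5 at log2 0.75 (0.38 to 1.12). Pcdhga1 was at log2 -0.70 (-1.34 to -0.10). Of the 22 beta genes 5 lay below 0 (Pcdhb2, Pcdhb8, Pcdhb9, Pcdhb18 and Pcdhb21) and none above. Of all 27179 genes of the table, 15.8% lay below 0 in brain and 11.7% above. Of the 14864 genes tested, which do not include Pcdhb2 and Pcdhb8, 26.85% lay below 0 and 19.6% above. Whether beta genes lay below 0 more often than genes in general rests on which of these shares is used. Pcdhgc5 was at log2 -0.52 (-0.71 to -0.34) and Pcdhac2 at log2 -0.27 (-0.49 to -0.06), while Pcdhgc3 was at log2 0.05 (-0.10 to 0.20). All these values are on the authors' scale. Total-count scaling moved the beta sum in brain from log2 -0.17 to 0.33, and it shifts every gene in brain alike.

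In brain the X-linked members Pcdh11x and Pcdh19 were at log2 -0.57 (-0.85 to -0.29) and log2 0.31 (0.11 to 0.51), FFPE minus frozen. The part of the Xist difference given above in these values was not tested.

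Genes that act with protocadherins were counted in the same fits, from lists chosen with earlier results known. Over all genes tested, 30.2% were higher and 26.4% lower for brain, with 19.0% and 20.1% for heart, 14.9% and 10.3% for kidney, then 17.1% and 21.7% for liver, and the counts of the 3 lists stand beside these shares. Of 15 regulators of cluster choice and chromatin, 3 were higher in brain against the other organs' mean (Dnmt3a, a DNA methyltransferase, by log2 0.95 ± 0.15, and the cohesin subunits Smc3 by 0.67 ± 0.24 and Stag1 by 0.46 ± 0.15) and 2 were lower (the cohesin loader Nipbl at log2 -0.39 ± 0.13 and the releaser Wapl at log2 -0.36 ± 0.13). In heart 1 of the 15 was higher and 2 were lower, in kidney 1 and 0, and in liver 1 and 4. Dnmt3a was lower in liver, at log2 -1.40 ± 0.15.

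Of 16 signalling and processing partners, 13 were higher in brain and 0 lower, beside 30.2% and 26.4% of all genes tested. Wasf3 (log2 5.36 ± 0.80) and Wasf1 (log2 5.27 ± 0.49), subunits of the WAVE complex that drives actin branching, stood highest, with Abi2 of the same complex at log2 3.18 ± 0.20 and the receptor kinase Ret at log2 3.08 ± 0.65. In heart 4 were higher and 1 lower, in kidney 4 and 1, and in liver 0 and 7, with Cyfip2, another WAVE subunit, at log2 -5.40 ± 0.16 in liver.

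Of 35 other genes of the cadherin superfamily, 31 were tested, and 21 were higher and 4 lower in brain, beside the same shares. Fat2, an atypical cadherin of the cerebellum, was at log2 7.53 ± 0.58, Celsr3, which guides axon tracts, at log2 7.44 ± 1.13, and Cdh8 at log2 6.54 ± 1.14, while Cdhr5 of the intestinal and renal brush border was at log2 -7.54 ± 0.69. In heart 12 were higher and 6 lower, in kidney 11 and 4, led by Cdh16, the kidney cadherin, at log2 7.83 ± 0.59, and in liver 3 and 11. No gene of the 3 lists was called for FFPE minus frozen by limma, with 6 of 15, 3 of 16 and 11 of 31 at an unadjusted p under 0.05, beside 18.6% of all genes tested.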

How the data were processed

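RNA from mouse brain, heart, kidney and liver was sheared, pulled down with an m6A antibody and made into ribosome-depleted total RNA libraries, per the labels' protocols. HISAT2, featureCounts and limma are named with mm10 in the submitters' processing notes, with no versions or settings. The values in the table the authors deposited are log2 normalized counts; from the values, each is log2 CPM of a scaled library size with 0.5 added to the count. When turned back into counts, 100% were whole numbers to within 0.001 (in proportion more for counts above 10000). The sources used here do not give how the scaling was chosen or how shared reads were counted. The table's name is the basis for calling its columns m6A. Another table has 8 columns that could not be assigned to samples, and none of them was used.

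Each of the 8 columns was assigned to its organ and preservation by name. Differences were tested with limma (additive model, trend, 3 residual degrees of freedom, Benjamini-Hochberg over 14864 genes). Cluster sums have exact Poisson intervals and shares Wilson intervals, both at 95%, and 3 counts stand in for 0 in bounds. Every member may be named; all libraries are given for up to 5 genes per group with the highest brain level and for the solitary genes. The members and lists were chosen with earlier results of these data known. On simulated data the brain contrast recovered 48% of 100 genes changed by log2 1 and 99% of 100 changed by log2 2, with 12 false calls. Software was limma 3.58.1 (in R 4.3.3), and matplotlib 3.10.9, pandas 2.3.3, scipy 1.17.1 and numpy 2.4.6 (in Python 3.11.15). Alternatives were other scalings (quantile, median, total counts, counts outside ribosomal genes), filters, 2 added counts, no trend, weights, and leaving out libraries.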

Additional observations from a re-analysis of the deposited data

Results flagged for a closer look

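For 3 members, FFPE and frozen tissue differed in opposite directions in different organs by more than the counting error, on the authors' scale. How many of all genes do so was not counted. Each value is 1 library against 1 library, and the difference between organs was not tested. Pcdh15 was at log2 0.77 in brain, FFPE minus frozen (251 against 234 counts), and at log2 -2.47 in heart (6 against 37 counts) and log2 -3.69 in kidney (2 against 29 counts). In liver it had 0 counts in FFPE and 22 in frozen tissue, and with 3 counts in place of 0 the difference was at least as low as log2 -2.21. Pcdh7 was at log2 0.59 in heart (1632 against 1205 counts) and log2 0.77 in kidney (152 against 100 counts), and at log2 -0.30 in brain (1148 against 2248 counts). Scaling by total gene counts moved the gamma sum in brain from log2 0.18 to 0.67, and it shifts every gene of that pair alike. The brain value of Pcdh7 is smaller in size than that shift, so its sign rests on the scaling. Pcdha10 was at log2 0.61 in brain (66 against 69 counts), and in heart at or below log2 -1.43 with 3 counts in place of 0 (0 counts in FFPE and 9 in frozen heart). The summed neuron markers were 18.7 CPM in FFPE heart against 45.6 CPM in frozen heart, with Slc17a7 and Stmn2 higher in FFPE heart, and their part in the heart values of Pcdh15 and Pcdha10 was not tested. FFPE and frozen libraries also differed in Xist in all 4 organs, so preservation and source animal cannot be told apart in these values.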

How the results depend on the processing

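No paired analysis was possible because the columns carry no run number. The alternatives that leave out members whose exons overlap, or use exon bases no other gene overlaps, were not run, because no exon annotation was used here. Of the values of single called members under the alternatives, 2649 kept their direction and stayed past the threshold, 294 kept their direction but missed it, and 3 changed sign (Pcdh7 in kidney without both heart libraries, log2 0.54, and in brain minus heart with total-count scaling, log2 0.37, and Pcdhgb4 there, log2 0.14). The cause of the changes below was not tested except where fewer genes or libraries entered.

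Members higher in brain numbered 27 with a log2 level above 0 required in at least 4 libraries and 27 with brain out of the filter (35 tested each), and 26 to 58 with 1 library left out. The shares of all genes tested, in that order, were 26.96%, 24.1% and 20.0 to 31.7%. In kidney, 1 was higher with quantile normalization or median centring, 9 with scaling by total counts or by counts outside ribosomal genes, 15 without both heart libraries, and 1 to 4 with 1 library left out. Of all genes tested 15.5%, 12.4%, 39.96%, 41.2%, 16.95% and 4.82 to 15.9% were higher, in that order. Lower in kidney were 0 with total-count scaling, 1 with counts outside ribosomal genes, no filter, at least 4 libraries, voom weights, no heart libraries or brain out of the filter, and 1 to 2 with 1 library left out. Beside these, in that order, 3.57%, 5.38%, 5.16%, 9.49%, 11.1%, 11.8%, 11.4% and 3.61 to 10.3% of all genes tested were lower. Higher in liver were 0 with total-count scaling, 3 with 2 counts added (Pcdha2 and Pcdha5 besides Pcdh1), and 2 with no trend or voom weights, and 15 were lower without both heart libraries. All-gene shares for liver were 7.12%, 18.3%, 13.8% (no trend) and 17.8% (voom weights) higher, and 16.95% lower without heart. FFPE minus frozen gave 2 lower with total-count scaling, beside 178 of the 14864 genes tested.

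In brain minus heart, 7 were higher under each of the stricter filters, and 8 to 36 with 1 library left out, while 1 was lower under either count-based scaling, 5 with voom weights, and 1 to 3 with 1 library left out. Over all genes tested, 2825 of 12045 (at least 4 libraries) and 2818 of 13508 (brain out of the filter) were higher. With 1 library left out, 2180 to 4303 of 14864 were. Lower were 990 (total counts), 2072 (counts outside ribosomal genes), 3115 (voom weights) and 1935 to 3061 (1 library left out) of 14864. FFPE minus frozen sums with total-count scaling were log2 0.48 for alpha in brain, 0.33, -0.079 and -0.94 for beta in brain, heart and kidney, and 0.67, 0.68, -0.28 and -0.18 for gamma in brain, heart, kidney and liver. With counts outside ribosomal genes, gamma was at log2 0.26 in brain, 0.21 in heart and 0.050 in kidney. Depth limits liver most, where most alpha and beta members had fewer than 3 counts in FFPE tissue.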
